A study of Homo sapiens with 20 samples.

Results

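Genes that copy DNA and genes that divide the cell were followed through 20 RNA-seq libraries. The set holds 56 genes of the 35168 in the deposited gene table. Of these, 27 act in DNA replication and 29 in mitosis, and they were taken by name from lists of cell cycle genes that were drawn up with earlier results of these data known. The libraries came from 5 established human cell lines with 4 libraries each. Acute myeloid leukemia (AML), a cancer of blood-forming cells, was represented by Kasumi-1, NOMO-1 and THP-1. Endothelium, the inner lining of vessels, was represented by iHUVEC and TIME. Every line was harvested untreated, after interferon gamma (IFNg), after tumor necrosis factor alpha (TNFa), and after both (IFNg+TNFa), the dose being 10 ng/ml per cytokine and the exposure 24 h. A treatment was thus seen in 3 AML and 2 endothelial libraries, where lines serve as replicates and no line was treated the same way more than once. A cell line grows as its own established culture, and values from 1 line describe that line alone. The data do not hold cell counts or cell cycle phases, so in these bulk libraries fewer dividing cells and less RNA per cell cannot be told apart.

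Before a cell divides it copies its genome once. The MCM2 to MCM7 ring is loaded at replication origins, is switched on with CDC45 and the GINS proteins, and then unwinds the DNA ahead of the polymerases. Mitosis follows, driven by cyclin B with CDK1 and by the Polo and Aurora kinases, while the spindle checkpoint holds the chromosomes until each kinetochore is attached. RNA of most of these genes rises and falls with the cell cycle: E2F factors act on many replication genes, and a complex of MuvB with B-MYB and FOXM1 acts on many mitosis genes through a promoter element known as the CHR.

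The promoters of the members showed that division in their letters. RefSeq (GRCh38.p14) gave a promoter for 49 members, 24 of replication and 25 of mitosis, as a window of 250 bases before the gene start and 50 from it. The CHR letters TTTGAA, sought on both strands, were in 17 of 25 mitosis promoters (68%), in 1 of 24 replication promoters (4.17%) and in 15.4% of all 27305 promoters. The E2F letters TTTGGCGC or TTCCCGCC, sought on both strands, were in 14 of 24 replication promoters (58.3%), in 1 of 25 mitosis promoters (4%) and in 3.81% of all. The CCAAT letters, bound by NF-Y, were in 58.3% of replication promoters, 72% of mitosis promoters and 35.7% of all. CHR and CCAAT letters stood together in 12 mitosis promoters (48%) and in 6.08% of all promoters. A match is a run of letters, not a measured binding site, and a short run such as TTTGAA is common.

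Stretches just before the gene start of 3 mitosis genes are shown as examples of the CHR and CCAAT letters, which are in capitals on either strand. MKI67 encodes the proliferation marker Ki-67, KIF11 a spindle motor and ESPL1 separase, the protease that parts sister chromatids. They lie at chr10:128126424-128126543 (minus strand), chr10:92593050-92593129 (plus strand) and chr12:53268219-53268298 (plus strand). In MKI67 the last CHR letters and the CCAAT letters on the other strand share 1 base.
MKI67: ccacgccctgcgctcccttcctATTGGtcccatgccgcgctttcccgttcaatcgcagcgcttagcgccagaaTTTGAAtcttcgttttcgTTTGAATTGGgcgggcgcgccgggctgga
KIF11: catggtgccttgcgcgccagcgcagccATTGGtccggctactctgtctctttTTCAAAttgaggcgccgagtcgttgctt
ESPL1: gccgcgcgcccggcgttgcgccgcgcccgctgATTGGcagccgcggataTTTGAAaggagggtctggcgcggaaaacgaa

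The same stretches of 3 replication genes are shown with the E2F letters in capitals. MCM6 is a subunit of the helicase ring, PCNA the sliding clamp that holds polymerases on DNA, and POLA1 the catalytic subunit of the polymerase that starts each new strand. They lie at chr2:135876444-135876613 (minus strand), chr20:5126627-5126742 (minus strand) and chrX:24693758-24693917 (plus strand).
MCM6: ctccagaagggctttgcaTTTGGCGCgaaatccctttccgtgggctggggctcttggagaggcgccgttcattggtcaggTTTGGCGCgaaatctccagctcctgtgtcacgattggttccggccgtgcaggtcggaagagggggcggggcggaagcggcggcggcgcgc
PCNA: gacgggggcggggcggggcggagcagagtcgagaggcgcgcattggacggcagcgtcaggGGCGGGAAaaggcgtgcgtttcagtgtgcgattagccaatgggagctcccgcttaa
POLA1: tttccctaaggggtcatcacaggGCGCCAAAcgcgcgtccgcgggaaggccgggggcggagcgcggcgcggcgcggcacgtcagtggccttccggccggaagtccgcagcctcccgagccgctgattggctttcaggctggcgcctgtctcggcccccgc

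Levels are in TPM, a read share corrected for transcript length, rescaled to their usual total without the 13 mitochondrially encoded genes. TPM keeps no read total, so the depth of each library is unknown. In NOMO-1 the mitochondrial genes held 73.2% to 82.1% of the deposited TPM, against 11.9% to 24.8% in the other 4 lines, so NOMO-1 values were scaled up most. The line labels matched their markers. All 10 endothelial markers reached 1 TPM in each endothelial library, and 1 to 4 of them did in the AML libraries. Of 10 hematopoietic markers, 9 or 10 reached 1 TPM in each AML library and 3 to 5 in the endothelial libraries. All 5 interferon target genes and all 5 TNF target genes on the check lists rose with both cytokines over the 5 lines.

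Gene levels add up every listed transcript, and some are not protein coding. Transcripts typed protein coding in GENCODE v29 were therefore also summed for each gene, on the same scale, as an alternative added after the values had been seen. For the median member they held between 87.1% and 99.3% of the untreated gene level, by line. The share was far lower for some members in some lines, and not all of those cases are given beside their results. In untreated THP-1, for example, it was 33.8% for RRM1 and 43.9% for CENPF. For CDC45, POLA1, PRIM1, RRM2 and BUB1 that annotation lacks some of the RNA in the gene total, so their coding sums may be too low.

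All 5 lines expressed both sets when untreated. The median member of the replication list stood at 59.7 TPM in Kasumi-1, 31.4 in NOMO-1, 53.6 in THP-1, 53.4 in iHUVEC and 32.0 in TIME. The median mitosis member stood at 44.8, 14.99, 49.5, 50.8 and 52.3 TPM in the same order. The mitosis median was 1.63 times the replication median in TIME and between 0.477 and 0.951 times it in the other lines. Single members spanned a wide range. In untreated THP-1, CDC20, the activator of the anaphase-promoting complex, reached 702 TPM and the next mitosis member, TOP2A, 123 TPM. In untreated NOMO-1, MCM7 reached 456 TPM, while CENPE, a kinetochore motor, stood at 0.999 TPM.

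**Figure D1:**
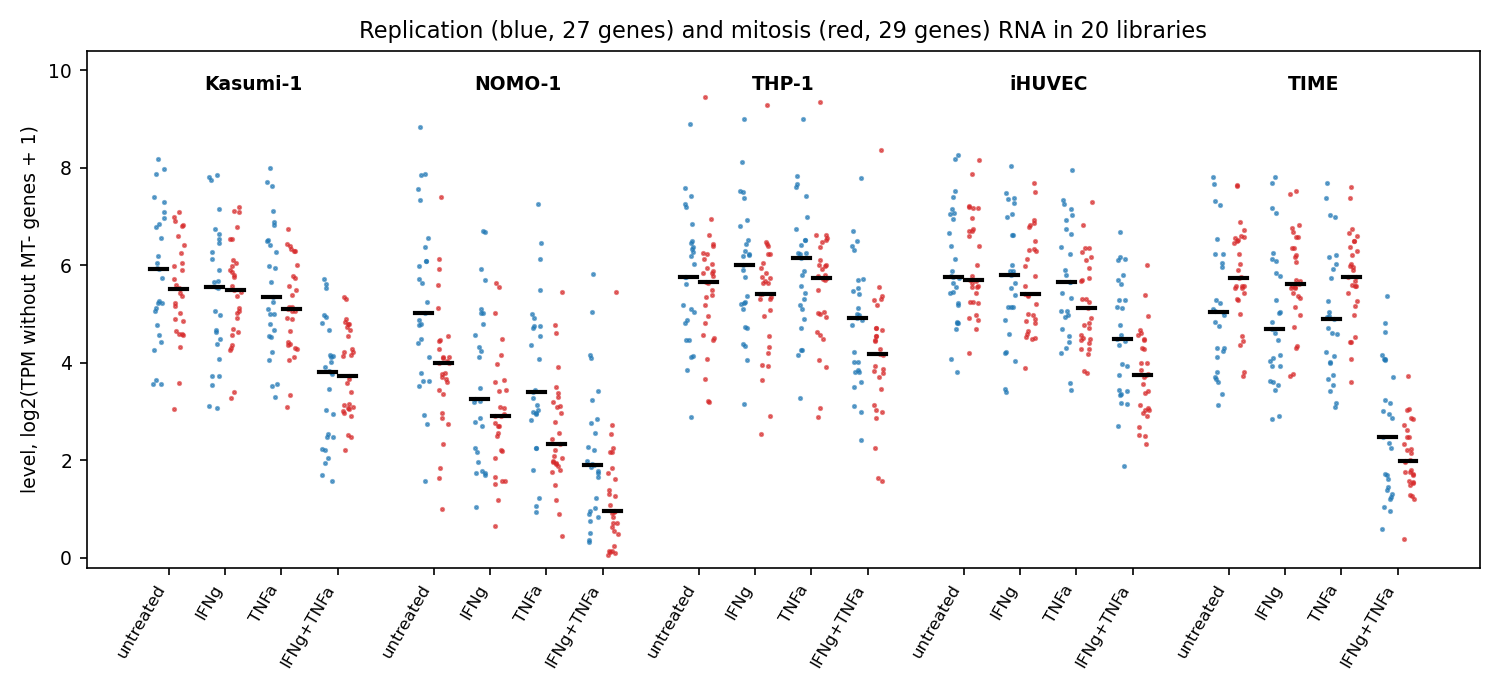
Level of each gene in each library, on the y axis as log2(TPM without mitochondrial genes + 1), with replication genes in blue, mitosis genes in red and a black bar at each list's median. In every line the library with both cytokines holds the lowest medians, and in NOMO-1 the libraries with 1 cytokine also stand below the untreated library.

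Untreated AML lines had lower mitosis RNA on average than untreated endothelial lines, with NOMO-1 far the lowest, but no single member passed the test. The mitosis median was 14.99 TPM in NOMO-1, 44.8 in Kasumi-1 and 49.5 in THP-1, against 50.8 in iHUVEC and 52.3 in TIME. Without NOMO-1 the median log2 difference of all 56 members was -0.10, against -0.59 with it. The median over all tested genes was -0.30 without NOMO-1. All 29 mitosis members were lower in AML, with a median log2 difference of -0.83, against -0.38 over all 13542 tested genes. Of the replication members, 12 were lower and 15 higher, with a median of 0.13; on coding transcripts 18 were lower and the median was -0.29. In the limma comparison of 3 AML with 2 endothelial lines, 0 of 56 members were called at an adjusted p under 0.05, where 7.61% of all tested genes were called, and 3 members had an unadjusted p under 0.05, against 22.6% of all tested genes. KIF20A, a motor needed for cytokinesis, stood at 35.0, 6.29 and 21.1 TPM in Kasumi-1, NOMO-1 and THP-1 and at 106 and 87.0 TPM in iHUVEC and TIME. The groups did not overlap for KIF20A, with a log2 difference of -2.43 ± 0.75 (SE) and an adjusted p of 0.118 (limma). RRM2, the small subunit of the enzyme that makes deoxynucleotides, stood at 156, 26.3 and 47.8 TPM in the AML lines and at 306 and 222 TPM in the endothelial lines, a difference of -2.14 ± 0.78 (adjusted p = 0.175, limma). At the other end, LIG1, the ligase that seals Okazaki fragments, differed by 1.16 ± 0.68 and CDC45 by 1.05 ± 0.65, with adjusted p of 0.367 and 0.392 (limma). NOMO-1 had the highest gene level of both, but on coding transcripts it had the lowest. Coding LIG1 stood at 8.44 TPM in untreated NOMO-1, which is 3.61% of the gene level, and between 14.2 and 41.4 TPM in the other lines. Coding CDC45 stood at 19.8 TPM in NOMO-1 and between 22.9 and 40.2 TPM in the others. On coding transcripts the differences were -0.98 ± 0.72 for LIG1 and -0.11 ± 0.53 for CDC45, with adjusted p of 0.439 and 0.91 (limma).

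With both cytokines, nearly all members were called lower in both cell types. Over the 5 lines, 56 of 56 members were called lower, where 27.2% of all 15941 tested genes were. In the AML lines 55 of 56 were called lower, against 20% of all tested genes. In the endothelial lines 52 of 56 were called lower, against 10.2% of all tested genes. The members not called were also lower on average. The median log2 change over 5 lines was -2.01 for replication and -2.41 for mitosis members, against -0.22 for all tested genes. Without TIME the endothelial count was 5, and without iHUVEC it was 30; a single endothelial line then stands for its cell type, with its spread taken from the other lines. In the AML lines, 45 to 54 members were called when any 1 of the 5 lines was left out. On coding transcripts 53 members were called in the AML lines, 53 in the endothelial lines and 56 over all 5.

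The fall was seen line by line. The library with both cytokines was the lowest of the 4 libraries of its line for all 56 members in Kasumi-1, THP-1, iHUVEC and TIME, and for 52 members in NOMO-1. Over all tested genes that library was the lowest for 33% of genes in Kasumi-1, 42.3% in NOMO-1, 50.4% in THP-1, 48.4% in iHUVEC and 47.1% in TIME. The exceptions in NOMO-1 were BIRC5, GINS4, POLE2 and SMC2, which leaves 52 members with the lowest level in every line, against 11.3% of all tested genes. Of the 56 members, 55 were lower than untreated in all 5 lines, where 21.6% of all tested genes were. A fall of at least 0.5 log2 in all 5 lines was seen for 51 members and 5.58% of all tested genes, and one of at least 1 log2 for 28 members and 1.29% of all tested genes. These 28 were 20 of mitosis and 8 of replication, the latter being CDT1, FEN1, LIG1, POLE2, PRIM1, RFC4, RFC5 and TYMS.

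**Figure D2:**
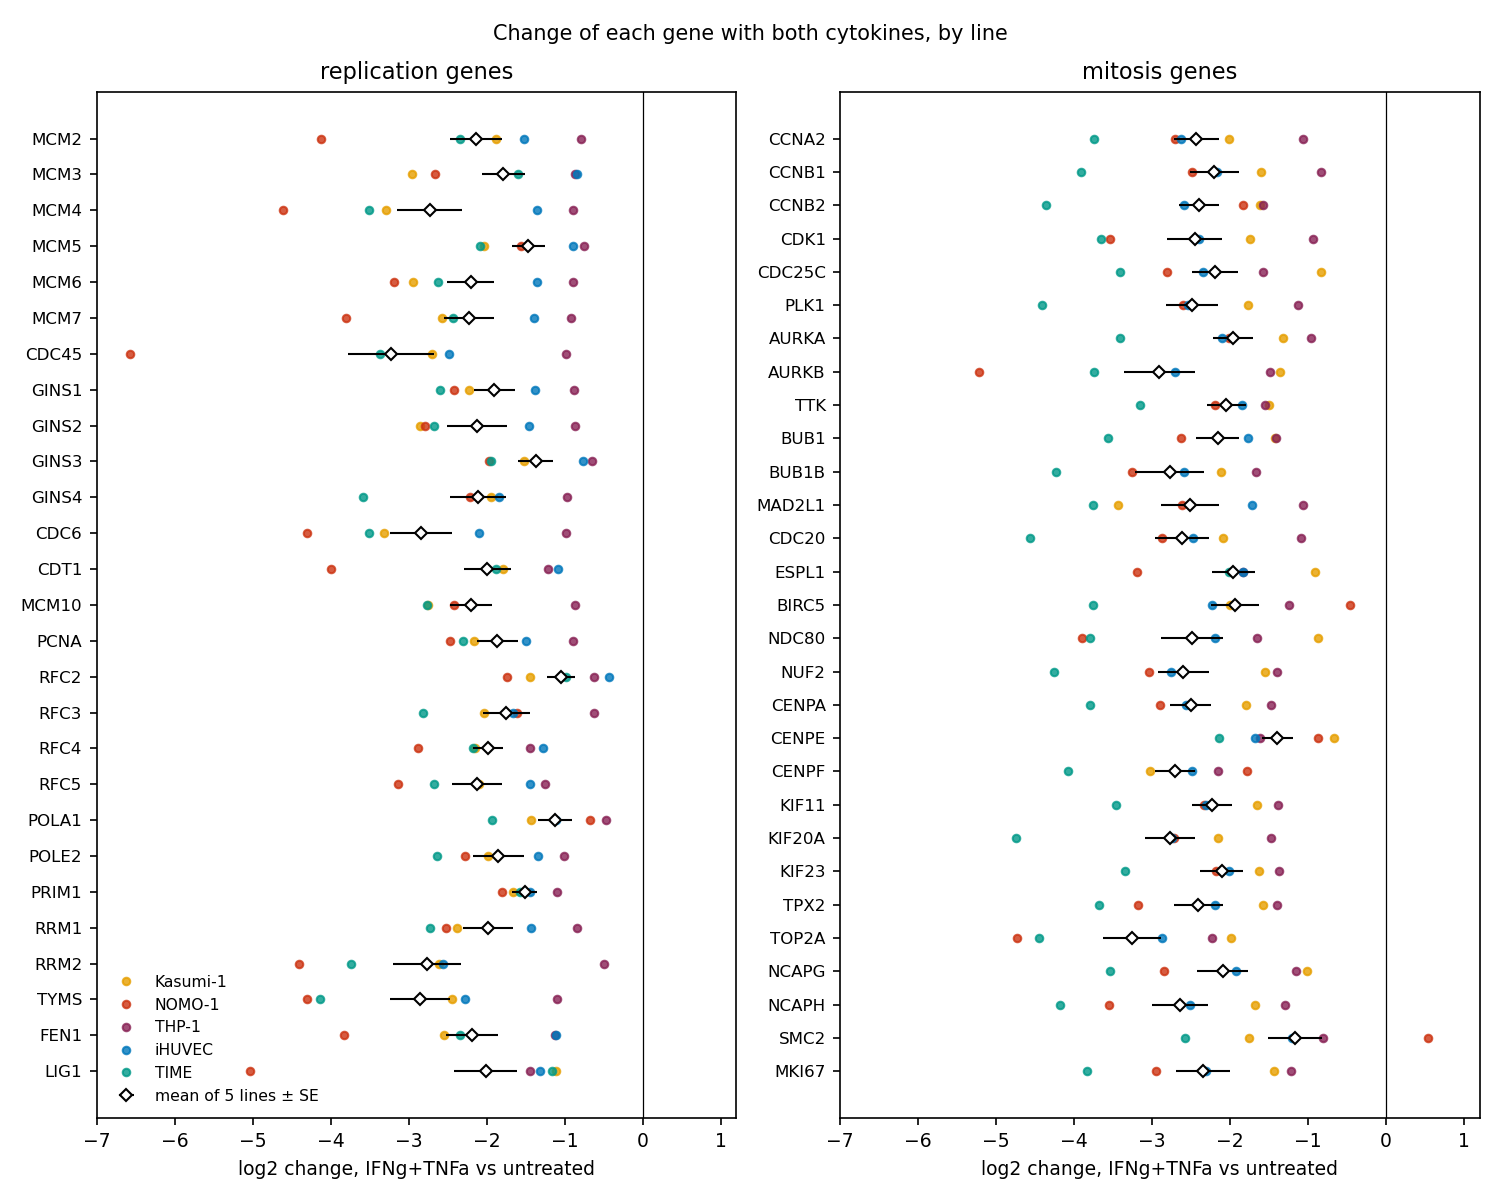
Log2 change of each gene between the untreated library and the library with both cytokines, with 1 coloured point for each line and an open diamond for the mean of 5 lines ± SE from limma. All points lie left of 0 except SMC2 in NOMO-1, and the THP-1 points lie nearest to 0 for most replication genes.

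The helicase genes fell in both cell types, by different amounts in different lines. MCM2 stood at 115 TPM in untreated Kasumi-1 and 30.5 with both cytokines, at 62.7 and 2.66 in NOMO-1, and at 89.2 and 51.0 in THP-1. In the endothelial lines MCM2 stood at 101 and 34.3 TPM in iHUVEC and at 38.0 and 6.70 in TIME. Each line fell, while the untreated TIME level lay below the treated THP-1 level. The log2 change of MCM2 over 5 lines was -2.13 ± 0.33 (adjusted p = 0.000521, limma). MCM5 had the smallest change of the 6 ring genes, -1.46 ± 0.21 (adjusted p = 0.000336, limma), and MCM4 the largest, -2.73 ± 0.41 (adjusted p = 0.000438, limma). MCM5 went from 124 to 29.6 TPM in Kasumi-1, 51.6 to 16.9 in NOMO-1, 76.5 to 45.1 in THP-1, 134 to 71.5 in iHUVEC and 74.5 to 16.8 in TIME. MCM3 was not called in the endothelial lines, where its change was -1.22 ± 0.43 (adjusted p = 0.0768, limma).

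CDC45, which joins the ring to form the active helicase, had the largest fall of any replication member at the gene level. It went from 52.6 to 7.22 TPM in Kasumi-1, 160.2 to 0.689 in NOMO-1 and 52.9 to 26.3 in THP-1, and from 48.5 to 7.87 in iHUVEC and 27.5 to 1.75 in TIME. The NOMO-1 library with both cytokines held 0.43% of its untreated gene level, the smallest share of any member in any line, and THP-1 kept the largest share of CDC45. Most of that untreated NOMO-1 level lay outside transcripts annotated as coding. The change over 5 lines was -3.22 ± 0.55 (adjusted p = 0.00086, limma). On coding transcripts it was -2.58 ± 0.43 (adjusted p = 0.000735, limma), smaller than that of TYMS at -3.05. At the gene level the other 4 genes of the GINS group fell less, GINS3 least, at -1.37 ± 0.23 (adjusted p = 0.000731, limma).

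Genes that license origins fell too. CDT1 loads the ring and went from 60.8 to 16.9 TPM in Kasumi-1, 31.4 to 1.04 in NOMO-1, 71.6 to 30.4 in THP-1, 42.6 to 19.5 in iHUVEC and 17.9 to 4.12 in TIME. It was called in the AML lines, at -2.33 ± 0.39 (adjusted p = 0.0013, limma). It missed the threshold in the endothelial lines, at -1.48 ± 0.48 (adjusted p = 0.0557, limma). CDC6, its partner in loading, fell by 2.84 ± 0.40 on the log2 scale over 5 lines (adjusted p = 0.000283, limma), with 2.87 TPM left of 37.7 in Kasumi-1.

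The clamp and polymerase genes had the smallest falls among replication roles, with median changes of -1.86 and -1.51 over 5 lines. PCNA went from 233 to 51.5 TPM in Kasumi-1, 93.8 to 16.2 in NOMO-1, 146 to 78.1 in THP-1, 289 to 102 in iHUVEC and 202 to 40.1 in TIME. Its change over 5 lines was -1.86 ± 0.27 (adjusted p = 0.000309, limma). The smallest changes of all members over 5 lines were those of RFC2, a clamp loader subunit, at -1.04 ± 0.18, and of POLA1, at -1.13 ± 0.22, with adjusted p of 0.001 and 0.00177 (limma). RFC2 was not called in the endothelial lines (-0.71 ± 0.29, adjusted p = 0.121, limma).

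Nucleotide supply had the largest median fall of the replication roles, -2.76 over 3 genes. RRM2 went from 156 to 24.7 TPM in Kasumi-1, 26.3 to 0.291 in NOMO-1, 47.8 to 33.7 in THP-1, 306 to 51.3 in iHUVEC and 222 to 15.7 in TIME. TYMS, the enzyme that makes thymidylate, went from 252 to 45.6, 67.4 to 2.46, 473 to 221, 168 to 33.9 and 158 to 8.06 TPM in the same order. The changes over 5 lines were -2.76 ± 0.44 for RRM2 (adjusted p = 0.000545, limma) and -2.85 ± 0.38 for TYMS (adjusted p = 0.000229, limma). THP-1 kept the highest share of both. The annotated coding part of RRM2 differed between lines: it held 83.3% of the untreated gene level in THP-1, 49.4% in NOMO-1 and 28.4% in iHUVEC, but 7.32% in Kasumi-1 and 8.71% in TIME. Coding RRM2 went from 11.4 to 3.03 TPM in Kasumi-1, 12.98 to 0.291 in NOMO-1, 39.8 to 28.4 in THP-1, 86.8 to 4.64 in iHUVEC and 19.4 to 1.19 in TIME, so THP-1 again kept the highest share. On coding transcripts the AML calls of RRM2 and of RRM1, the large subunit of the same enzyme, were lost, with changes of -1.84 ± 0.70 and -0.86 ± 0.44 and adjusted p of 0.0618 and 0.153 (limma). Of the Okazaki fragment genes, LIG1 went from 59.7 to 27.1 TPM in Kasumi-1, 234 to 6.15 in NOMO-1, 81.8 to 29.4 in THP-1, 58.4 to 22.8 in iHUVEC and 36.6 to 15.9 in TIME. Its endothelial change was -1.24 ± 0.64 (adjusted p = 0.219, limma), not called, and its AML change was -2.53 ± 0.52 (adjusted p = 0.00379, limma). On coding transcripts those changes were -1.65 ± 0.60 and -2.03 ± 0.49, with adjusted p of 0.0772 and 0.00863 (limma).

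All 29 mitosis members were called lower in the endothelial lines and 28 of 29 in the AML lines. CCNB1, a B-type cyclin, went from 119 to 38.5 TPM in Kasumi-1, 16.2 to 2.05 in NOMO-1 and 82.8 to 45.9 in THP-1. In the endothelial lines CCNB1 went from 286 to 62.8 TPM in iHUVEC and 199.9 to 12.3 in TIME. Its kinase CDK1 went from 135 to 39.6, 21.0 to 0.889, 73.9 to 38.1, 125 to 22.9 and 90.8 to 6.26 TPM in Kasumi-1, NOMO-1, THP-1, iHUVEC and TIME. TIME and NOMO-1 kept the smallest shares of both. The changes over 5 lines were -2.20 ± 0.31 for CCNB1 (adjusted p = 0.000309, limma) and -2.46 ± 0.35 for CDK1 (adjusted p = 0.000317, limma).

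Of the mitotic kinases, PLK1, the Polo kinase, went from 42.4 to 11.7 TPM in Kasumi-1, 34.1 to 4.78 in NOMO-1, 85.9 to 38.7 in THP-1, 147 to 24.4 in iHUVEC and 117 to 4.53 in TIME. AURKB, the Aurora kinase of the chromosomal passenger complex, went from 44.8 to 16.8, 167 to 3.49, 49.5 to 17.0, 146 to 21.5 and 94.8 to 6.15 TPM in the same order. Untreated endothelial lines lay above all AML lines for PLK1, and with both cytokines iHUVEC lay within the AML range and TIME below it. Over 5 lines PLK1 changed by -2.49 ± 0.33 (adjusted p = 0.000212, limma) and AURKB by -2.91 ± 0.45 (adjusted p = 0.000515, limma).

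TOP2A, the topoisomerase that untangles chromosomes, had the largest fall of all members. It went from 110.3 to 26.96 TPM in Kasumi-1, 68.8 to 1.62 in NOMO-1, 123 to 25.4 in THP-1, 143 to 18.7 in iHUVEC and 96.5 to 3.44 in TIME. The 5 treated levels all lay below the 5 untreated levels. The change was -3.26 ± 0.37 (adjusted p = 9.09e-05, limma). MKI67 went from 62.2 to 22.3, 9.91 to 0.406, 41.2 to 17.1, 50.8 to 9.43 and 45.5 to 2.27 TPM in the same order, with a change of -2.35 ± 0.35 (adjusted p = 0.000382, limma). Untreated NOMO-1 lay below treated Kasumi-1 and THP-1 for MKI67. CENPF, a kinetochore protein, changed by -2.71 ± 0.26 (adjusted p = 2.93e-05, limma), and BUB1B, a spindle checkpoint protein, by -2.77 ± 0.44 (adjusted p = 0.000584, limma).

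SMC2 and CENPE had the smallest falls of the mitosis members in the AML lines, at the gene level and on coding transcripts. SMC2, a condensin subunit, went from 2.09 to 3.50 TPM in NOMO-1, from 28.8 to 7.78 in Kasumi-1 and from 11.8 to 6.28 in THP-1, and from 29.1 to 12.0 in iHUVEC and 22.5 to 2.92 in TIME. Its AML change was -0.68 ± 0.45 (adjusted p = 0.277, limma), the one member not called there. CENPE changed by -1.05 ± 0.26 (adjusted p = 0.0094, limma) and started from 0.999 TPM in NOMO-1, where log2(TPM + 1) understates a fold change. BIRC5, the survivin gene, came next at the gene level, with an AML change of -1.24 ± 0.40 (adjusted p = 0.033, limma). Its gene level stood at 59.9 TPM in untreated NOMO-1 and 43.1 with both cytokines, but only 3.24% of the latter was coding. Coding BIRC5 went from 35.9 to 1.39 TPM in NOMO-1, 99.9 to 17.9 in Kasumi-1 and 86.3 to 37.2 in THP-1. The AML change of coding BIRC5 was -2.52 ± 0.52 (adjusted p = 0.0039, limma).

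The single cytokines gave no call for any member. With IFNg, 0 of 56 members were called in the AML lines, the endothelial lines or all 5 lines, where 0.828%, 0.376% and 1.18% of all tested genes were called by limma. With TNFa the counts were also 0, where 0.282%, 0.734% and 0.652% of all tested genes were called by limma. At an unadjusted p under 0.05 there were 1, 0 and 2 members with IFNg, where 12.5%, 4.58% and 11.3% of all tested genes were. With TNFa there were 2, 0 and 2 members, where 9.67%, 6.06% and 10.5% of all tested genes were. The members' counts lay below these shares. The mean gene-level change was nevertheless below 0 for all 56 members over the 5 lines with either cytokine; on coding transcripts it was above 0 for 1 member with each. The median over the AML lines was -0.51 with IFNg and -0.54 with TNFa, and without NOMO-1 it was -0.11 and -0.091. RFC5, a clamp loader subunit, had the largest mean fall over 5 lines with IFNg, at -0.70 ± 0.32 (unadjusted p = 0.0499, adjusted p = 0.441, limma). With TNFa it was TOP2A, at -0.86 ± 0.37 (unadjusted p = 0.0394, adjusted p = 0.444, limma).

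**Figure D3:**
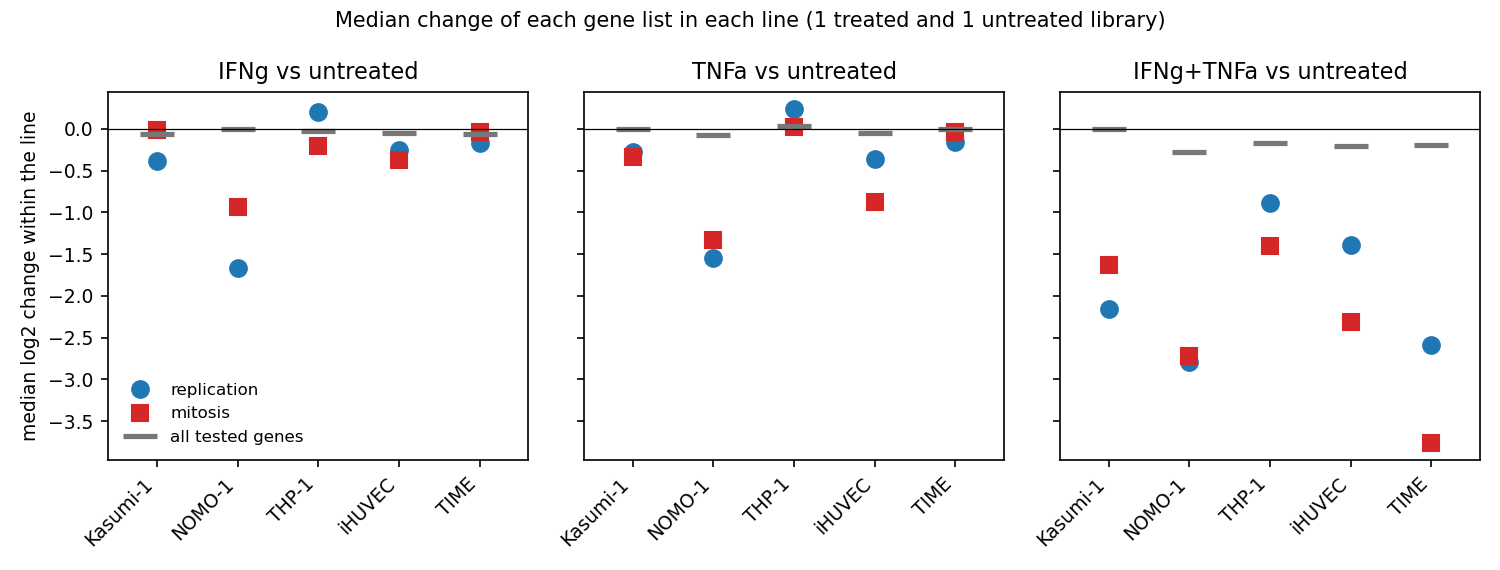
Median log2 change of the replication list (blue circles), the mitosis list (red squares) and all tested genes (grey bars) in each line, with 1 panel for each treatment; each point compares 1 treated with 1 untreated library. With 1 cytokine NOMO-1 stands apart at -0.94 to -1.67, and with both cytokines both lists lie below all tested genes in every line.

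NOMO-1 had by far the most members lowered by 1 cytokine. Each line has 1 library per treatment, so the values by line have no replicate check. With IFNg, 47 of 56 members were lower by at least 0.5 log2 in NOMO-1, where 25.2% of all tested genes were. The same count was 9 in Kasumi-1 (16.8% of all tested genes), 3 in THP-1 (10.7%), 10 in iHUVEC (9.74%) and 4 in TIME (11.2%). With TNFa it was 52 in NOMO-1 (30.6%), 10 in Kasumi-1 (5.65%), 0 in THP-1 (7.06%), 29 in iHUVEC (12.5%) and 2 in TIME (8.05%). In THP-1, 25 of 27 replication members were instead higher than untreated with IFNg and also with TNFa, where 42.3% and 54.3% of all tested genes were. Members lower in all 5 lines numbered 12 with IFNg, against 10.8% of all tested genes, and 7 with TNFa, against 7.45%. Those 7 were the mitosis genes BUB1, CCNB2, CDC20, CENPA, NUF2, TOP2A and TTK, with BUB1 all but level with untreated in 1 line. The mitochondrial share of NOMO-1 was 76.0% untreated, 73.2% with IFNg, 80.4% with TNFa and 82.1% with both, and its part in these values was not tested.

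In NOMO-1 either cytokine alone was accompanied by lower replication RNA. MCM2 stood at 62.7 TPM untreated, 19.0 with IFNg, 15.8 with TNFa and 2.66 with both. PCNA stood at 93.8, 31.5, 29.04 and 16.2 TPM in the same order, and RRM2 at 26.3, 6.34, 6.12 and 0.291. For these genes the 2 single treatments lay close together, between the untreated library and the one with both. The median replication change with 1 cytokine was -1.67 for IFNg and -1.55 for TNFa, and the median mitosis change was -0.94 and -1.33. With TNFa the largest falls were those of BUB1B, from 22.6 to 1.81 TPM, and of GINS2, from 11.4 to 0.91 TPM.

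In iHUVEC, TNFa alone was accompanied by lower mitosis RNA. Of the 29 members lower by at least 0.5 log2, 24 were of mitosis and 5 of replication. CCNA2, the cyclin of S phase and early mitosis, went from 83.6 to 37.0 TPM. CCNB1 stood at 286 TPM untreated, 206 with IFNg, 156 with TNFa and 62.8 with both. In TIME the same gene stood at 199.9, 176, 194 and 12.3 TPM. The 2 endothelial lines thus differed with TNFa alone: the median mitosis change was -0.87 in iHUVEC and -0.04 in TIME. With 1 library each, that difference was not tested.

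TIME showed the sharpest step between a single cytokine and both. PLK1 stood at 117 TPM untreated, 102 with IFNg, 106 with TNFa and 4.53 with both. TOP2A stood at 96.5, 94.9, 89.3 and 3.44 TPM, and MKI67 at 45.5, 46.6, 58.9 and 2.27. The 3 libraries without the combination lay close together for PLK1 and TOP2A, while MKI67 was highest with TNFa. For each gene the fourth library lay far below. All 29 mitosis members were at least 2 log2 lower in TIME with both cytokines, against 3.6% of all tested genes. The lowest shares of the untreated level were 2.41% for CDC25C, a phosphatase that activates CDK1, and 2.62% for KIF20A.

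**Figure D4:**
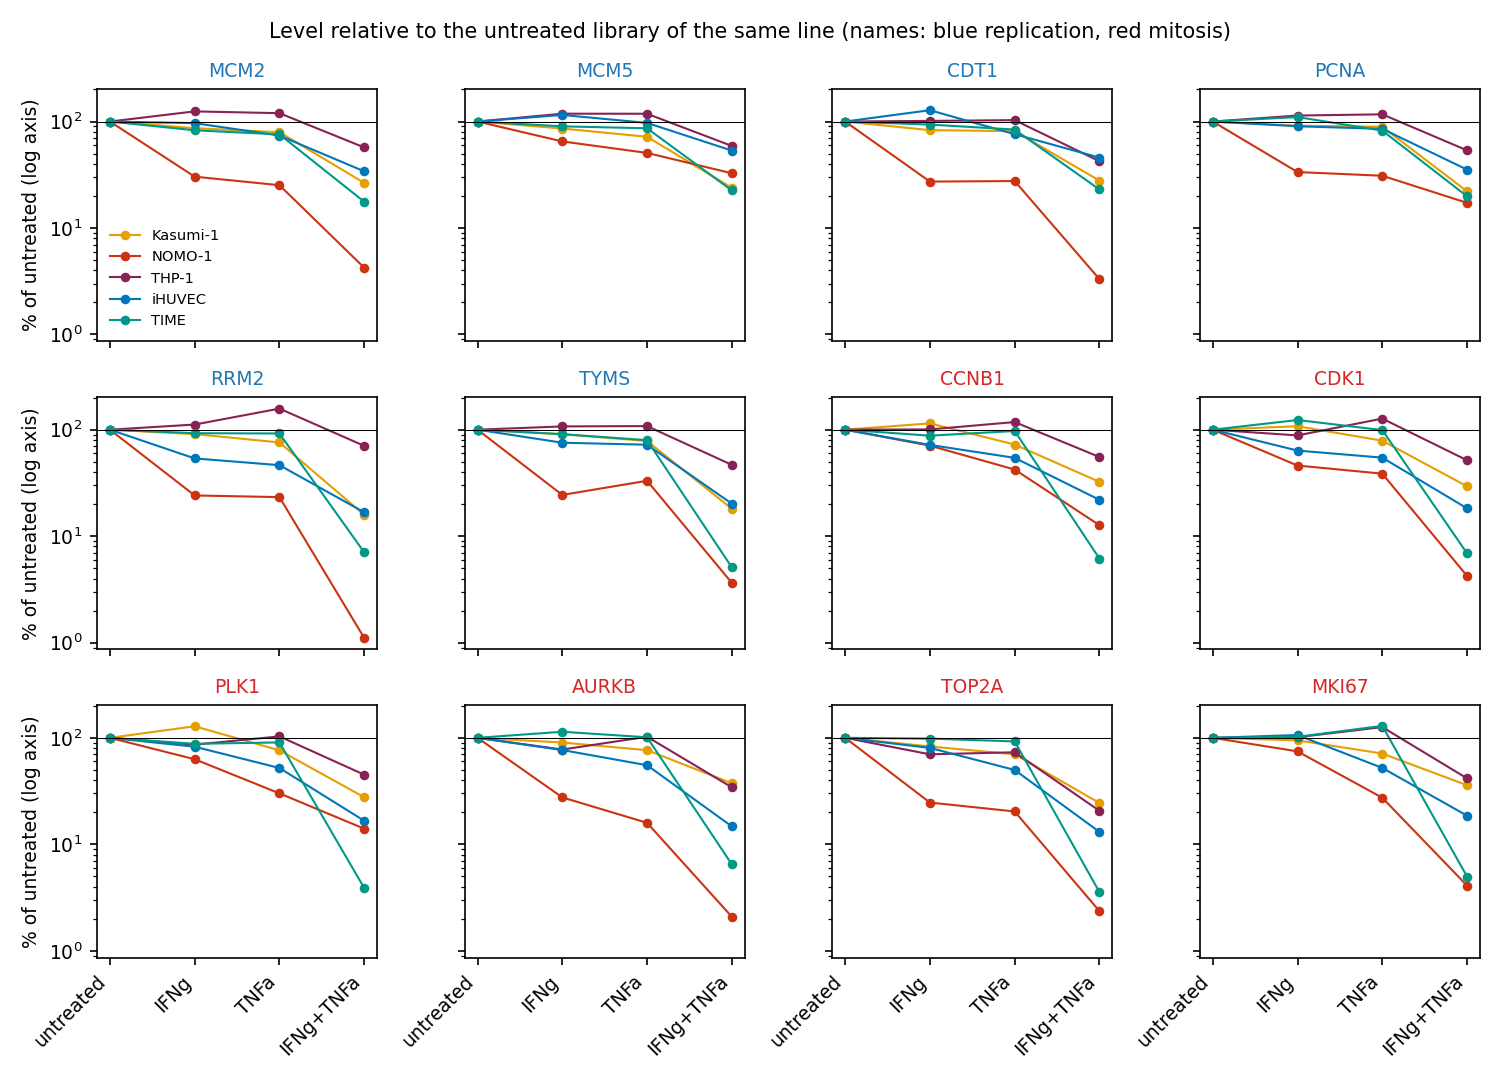
Level of 12 genes in each line as a percent of the untreated library of that line, on a log axis, for the 4 conditions. In TIME most genes stay near 100% until both cytokines are combined, and MKI67 reaches 129% with TNFa. In NOMO-1 the levels drop with either cytokine, and in THP-1 most stay highest.

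The response to both cytokines was also set against the sum of the 2 single responses, a contrast added after the values had been seen. The difference was below 0 for all 56 members over 5 lines, with a median of -1.31 log2 against -0.12 for all tested genes. By limma 0 of 56 members were called, where 0.0188% of all tested genes were. At an unadjusted p under 0.05 there were 49 members, or 87.5%, against 7.77% of all tested genes. By cell type these members numbered 9 in the AML lines, against 5.6% of all tested genes, and 39 in the endothelial lines, against 4.11%. CENPF had the largest difference at the gene level, -2.15 ± 0.36 (unadjusted p = 6.09e-05, adjusted p = 0.21, limma). CDC45 came next at the gene level, at -1.96 ± 0.78 (adjusted p = 0.605, limma), with most of its untreated NOMO-1 level outside annotated coding transcripts.

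Replication and mitosis genes did not fall in the same proportion in every line. With both cytokines the median mitosis change minus the median replication change was 0.52 log2 in Kasumi-1, 0.07 in NOMO-1, -0.51 in THP-1, -0.92 in iHUVEC and -1.17 in TIME. A negative value means that mitosis RNA fell further, as in both endothelial lines and THP-1, and Kasumi-1 went the other way. The mean over lines was -0.40 ± 0.70 (SD, n = 5), smaller than its spread. In TIME the ratio of the mitosis median to the replication median went from 1.63 untreated to 0.652 with both cytokines, and in Kasumi-1 from 0.750 to 0.939. It also fell in iHUVEC, from 0.951 to 0.578, in THP-1, from 0.925 to 0.583, and in NOMO-1, from 0.477 to 0.342. With both cytokines, 16 of 29 mitosis and 7 of 27 replication members lay below 1 TPM in NOMO-1. There log2(TPM + 1) understates a fall, so the value of 0.07 may be too high. In Kasumi-1 the median mitosis change was -1.64, and MAD2L1 (-3.44) and CENPF (-3.02) fell furthest of that list. MAD2L1, a spindle checkpoint gene, went from 95.6 to 7.92 TPM. Its most abundant transcript is typed as subject to nonsense-mediated decay, and coding MAD2L1 went from 13.7 to 1.29 TPM there.

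No member was called for a difference between the AML and endothelial responses. With both cytokines the count was 0 of 56, where 2.57% of all tested genes were called by limma, and 7 members, all of mitosis, had an unadjusted p under 0.05, or 12.5% against 16.9% of all tested genes. The AML change was nearer to 0 than the endothelial change for 28 of 29 mitosis members, with a median difference of 1.10 log2, and for 11 of 27 replication members, with a median of -0.07. On coding transcripts these counts were 29 and 15, with medians of 1.14 and 0.06. Over all tested genes the median difference was 0.04. Over the 56 members together it was 0.67, but without TIME it was 0.054, against 0.027 for all tested genes. Without iHUVEC it was 1.39, so its size depended on TIME. CCNB2, a B-type cyclin, went from 84.1 to 26.8 TPM in Kasumi-1, 11.7 to 2.57 in NOMO-1 and 68.8 to 22.3 in THP-1, and from 95.4 to 15.01 in iHUVEC and 93.9 to 3.62 in TIME. Its difference was 1.80 ± 0.52 (adjusted p = 0.0951, limma), the largest of the members. BIRC5 differed by 1.76 ± 0.62 and PLK1 by 1.64 ± 0.68, with adjusted p of 0.171 and 0.24 (limma); coding BIRC5 differed by 1.06 ± 0.82 (adjusted p = 0.533, limma). At the other end LIG1 differed by -1.29 ± 0.82 and MCM3 by -0.94 ± 0.55, with adjusted p of 0.466 and 0.423 (limma); coding LIG1 differed by -0.39 ± 0.77 (adjusted p = 0.834, limma). For the single cytokines the same test called 0 of 56 members, where 0.00627% of all tested genes were called with IFNg and 0.157% with TNFa, and 0 members had an unadjusted p under 0.05, against 3.91% and 4.81% of all tested genes.

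**Figure D5:**
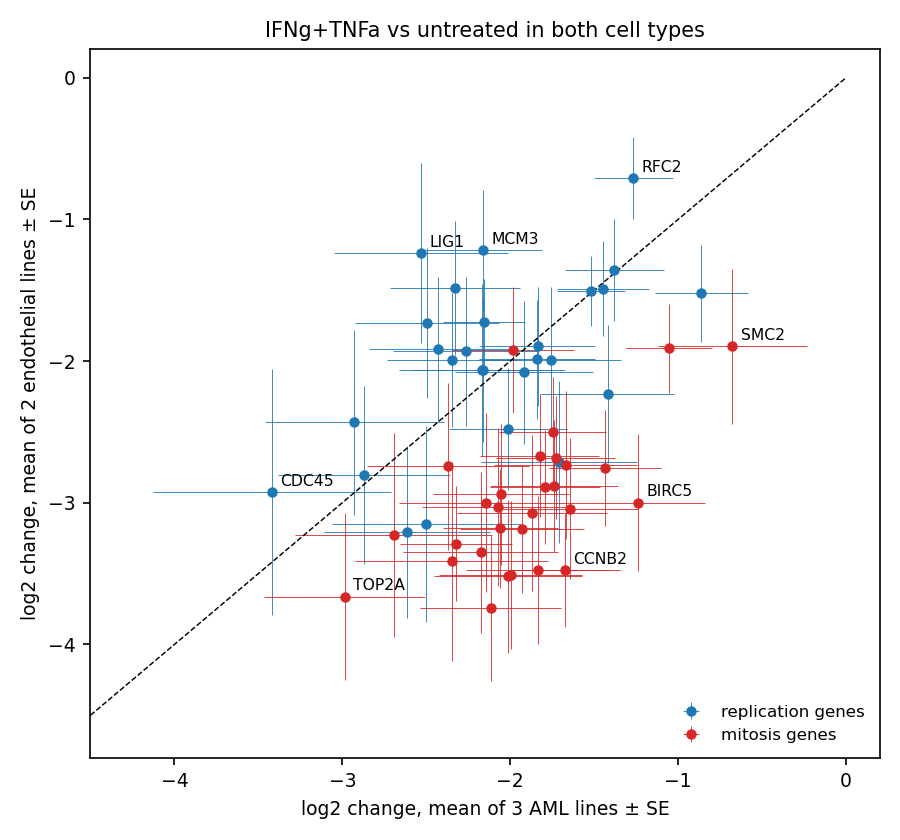
Log2 change with both cytokines in the mean of 3 AML lines (x axis) and of 2 endothelial lines (y axis), with SE bars from limma; blue points are replication genes, red points mitosis genes, and the dashed line marks equal changes. Most red points lie below the line and the blue points lie on both sides of it, while no single difference passed the test.

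The wider lists moved the same way. With both cytokines over 5 lines, 40 of 45 other replication genes and 61 of 62 other mitosis genes were called lower. Over all tested genes 27.2% were called lower, and none of either list was called higher. The median change of those lists was -1.57 and -1.89 log2. Of 43 cell cycle regulators, 23 were called lower and 5 higher, where 27.2% and 10.2% of all tested genes were. E2F1, the activator named above for replication genes, fell by 2.62 ± 0.36 on the log2 scale (adjusted p = 0.000251, limma). MYBL2, which encodes B-MYB, fell by 3.29 ± 0.49 (adjusted p = 0.000417, limma), and FOXM1 fell by 2.07 ± 0.34 (adjusted p = 0.000667, limma). For these 3 genes the AML and endothelial changes were not called as different, with adjusted p of 0.925, 0.92 and 0.691 (limma).

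In the AML lines 21 of the 43 regulators were called lower and 7 higher. Of all 15941 tested genes, 3184 (20%) were called lower there, and 4723 were called in either direction. Whether the regulators hold more genes called higher than that background was not tested. CDKN1A, which encodes the CDK inhibitor p21, went from 0.519 to 612 TPM in Kasumi-1, 4.55 to 285 in NOMO-1 and 9.94 to 422 in THP-1. In the endothelial lines CDKN1A started higher, and went from 68.8 to 196 TPM in iHUVEC and 188 to 395 in TIME. The AML change was 6.54 ± 0.72 (adjusted p = 0.000116, limma), the endothelial change 1.282 ± 0.88 (adjusted p = 0.374, limma), and the difference 5.26 ± 1.13 (adjusted p = 0.0294, limma). RB1, the retinoblastoma protein that holds E2F back, rose in the AML lines by 2.06 ± 0.29 (adjusted p = 0.000525, limma). Its endothelial change was 0.24 ± 0.36 (adjusted p = 0.751, limma), and the difference of 1.82 ± 0.46 was not called (adjusted p = 0.0602, limma).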

How the data were processed

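Total RNA libraries were sequenced on an Illumina NovaSeq, per the labels. The submitters' processing notes name Salmon 1.2.0, DESeq2 1.28.1 and build GRCh38 p13, without roles. The authors deposited TPM values for 35168 genes and 170068 transcripts. Symbols came from a gene name table for 35051 genes and from GENCODE v29 for 110.

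TPM was rescaled without 13 mitochondrial genes and tested as log2(TPM + 1) with limma 3.58.1 (R 4.3.3) on genes with at least 1 TPM in 2 libraries, with Benjamini-Hochberg adjustment over all of them. This scale understates changes of weakly expressed genes. The treatment fit used all 20 libraries, with cell line as a block (9 residual degrees of freedom); same-line libraries came from the same cell line, and their deviations correlated at 0.65 to 0.88 over 30 pairs. Cell types were compared within the 5 untreated libraries. On simulated data for 15941 genes, 90% of genes changed by 2 log2 were called and 0.0318% of unchanged genes. There few genes changed, by the same amount in every line, and noise was independent between genes. Responses in the data differed between lines, so these rates may not hold for the data. In the treatment fit, p-values measure how far changes differ between lines of a cell type, pooled over both cell types and all treatments. In the untreated comparison they measure the spread of levels between lines of a cell type. Named genes were members called, at most 15 by size for each comparison, otherwise the 3 highest and 3 lowest; the 2 of each list with the largest change in each line; and 12 genes with a value throughout, 6 of each list. The members and lists were chosen with earlier results of these data known. Genes outside that rule (MCM7, CENPE, GINS3, RFC2, POLA1, SMC2, MCM3, BIRC5 in places, and the regulators) were named after their values were seen. Tables and figures used Python 3.11.15, pandas 2.3.3 and matplotlib 3.10.9. Scaling, pseudocount, filter, variance trend, block and left-out lines were varied, and coding transcripts alone were tried after the values had been seen.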

Additional observations from a re-analysis of the deposited data

Results flagged for a closer look

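A test of the difference between AML and endothelial responses to both cytokines called 4 genes of the wider lists, and no member. Over all tested genes 2.57% were called, and whether the wider lists hold more such genes was not tested. CDKN1A differed by 5.26 log2, with the larger rise in the AML lines. BTG2, an antiproliferative gene, differed by 4.32 ± 0.88 (adjusted p = 0.023, limma): it went from 0.806 to 1.60 TPM in Kasumi-1, 3.72 to 36.6 in NOMO-1 and 4.16 to 79.2 in THP-1, and from 10.0 to 3.47 in iHUVEC and 10.2 to 1.19 in TIME. UBE2S, a ubiquitin-conjugating enzyme that works with the anaphase-promoting complex, differed by 2.29 ± 0.39 (adjusted p = 0.0109, limma), with an endothelial fall of -2.20 ± 0.30 and an AML change of 0.09 ± 0.25. DEPDC1 differed by 2.10 ± 0.47 (adjusted p = 0.0353, limma), with changes of -1.36 ± 0.30 in AML and -3.46 ± 0.36 in endothelial lines. Groups of 2 or 3 lines are too small for the test of a single outlying library.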

How the results depend on the processing

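Without the replicate block for cell line, which removes the shared level of each line, both cytokines gave 4 members called in the AML lines, 2 in the endothelial lines and 14 over 5 lines, against 55, 52 and 56 with it. Leaving out 1 line gave 45 to 54 in AML, 5 to 55 in endothelial lines and 55 to 56 over all; 5 without TIME and 30 without iHUVEC. Median-of-ratios scaling, which moved the median of all tested genes with both cytokines to 0.00 from the -0.17 of the deposited TPM, gave 40 endothelial members called, a pseudocount of 0.1 gave 47, and no filter 45. Members lower by at least 1 log2 in all 5 lines numbered 28, against 51 at 0.5 log2. Lines left out gave 0 to 1 members called for the difference between cell types with both cytokines, for the departure from the sum in all 5 and in endothelial lines, and for untreated AML against endothelial; the 1 came without iHUVEC, or without Kasumi-1 for the last. Without THP-1, 2 members were lower by 0.5 log2 in every line with IFNg, against 0.

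Values near 0 of uncalled genes changed sign. For IFNg in AML with mitochondrial genes kept, CCNB1 was 0.016, CCNB2 0.042 and KIF23 0.044; with median-of-ratios scaling CCNB2 was 0.029 and KIF23 0.057, and over 5 lines KIF23 was 0.0028 and MKI67 0.013. For TNFa, POLA1 in AML was 0.0077 with mitochondrial genes kept and CENPE in endothelial lines 0.018 with median-of-ratios scaling. Leaving out 1 line gave these ranges. For IFNg in AML, CCNB1 lay between -0.23 and 0.10, CCNB2 between -0.12 and 0.033 and KIF23 between -0.093 and 0.13. For IFNg, CDT1 in endothelial lines lay between -0.090 and 0.35, and over 5 lines KIF23 between -0.13 and 0.020, MKI67 between -0.10 and 0.014 and MCM5 between -0.19 and 0.021. The MAD2L1 difference lay between -0.060 and 0.40. For TNFa, POLA1 in AML lay between -0.32 and 0.14, CENPF in AML between -0.24 and 0.014, CENPE in endothelial lines between -0.41 and 0.36, FEN1 there between -0.030 and 0.12, and GINS3 over 5 lines between -0.20 and 0.013. The TNFa differences lay between -1.60 and 0.19 for BUB1B, -1.32 and 0.016 for CDC45, and -0.20 and 0.68 for BIRC5. The AML departures from the sum lay between -1.52 and 0.26 for GINS4 and -1.10 and 0.20 for SMC2. With protein-coding transcripts alone, sign changes were MKI67 at -0.096 for IFNg in endothelial lines, POLE2 at 0.030 for IFNg over 5 lines, GINS4 at 0.086 for the IFNg difference, SMC2 at 0.049 for TNFa in AML, BIRC5 at -0.32 for the TNFa difference, and CDC45 at -0.11 and LIG1 at -0.98 for untreated AML against endothelial. The cause was not tested. TPM keeps no depth, so counting error is unknown.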
